A study of Mus musculus with 62 samples.

Results

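Livers of mice that carried a cachectic melanoma (CAC) were set against livers of mice that carried a non-cachectic melanoma (NCAC), both 6 weeks after the tumour cells were injected. The comparison took 5 CAC and 5 NCAC libraries, 10 of the 62 liver libraries in the table, chosen by the group named in each column header. It ran across 12160 expressed genes of 47643 listed, those that reached 1 TPM, a length-corrected share of all transcripts, in 5 or more of the 62 libraries. The study sampled liver 2, 4, 6 and 8 weeks after injection of CAC cells, NCAC cells or a mock injection (Con), with 5 libraries in each group and 7 in CAC at 8 weeks. Polyadenylated RNA was sequenced from stranded libraries that the labels call biological replicates, so each was taken as 1 animal.

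All animals of the CAC, NCAC and Con groups were female, and the labels give their age as 2 months, which the design text gives as the age at injection. CAC animals had received cachectic melanoma cells, NCAC animals non-cachectic melanoma cells and Con animals a mock injection, and no further agent or allele is given. The strain is uncertain, because the labels give C57BL6/J whereas the design text gives NCI Ath/nude, an athymic host that lacks most T cells and keeps natural killer, B and myeloid cells. Neither the melanoma lines nor the site of injection is named, and the difference between CAC and NCAC cells is given only by those words. A contrast of CAC with NCAC therefore sets 1 tumour cell population against another in hosts that both bear a tumour, and Con supplies livers without one.

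Cachexia is the wasting of muscle and fat in a tumour-bearing host. The liver responds to circulating cytokines with the acute phase response: interleukin-6 and its relatives bind receptors that share the gp130 chain (Il6st) and activate the transcription factor STAT3, interleukin-1 and tumour necrosis factor act through NF-kB, and C/EBP factors join both at the promoters of secreted plasma proteins. Hepatocytes then export serum amyloid A, fibrinogen, haptoglobin and hemopexin, while many genes for fat burning, detoxification and growth-hormone-dependent secretion are known to decline during inflammation.

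At 6 weeks CAC livers held far more acute phase RNA than NCAC livers and far less RNA for major urinary proteins. Many genes of fatty acid oxidation and part of the genes of drug metabolism were lower. In summed RNA, most of the fall of the fatty acid list lay in the carrier gene Fabp1. The 35 acute phase genes listed together took 12.5 to 22.1% of all TPM in the 5 CAC livers (median 16.7%), 5.33 to 5.72% in the 5 NCAC livers (median 5.55%) and 4.45 to 5.38% in the 5 Con livers (median 4.65%). The major urinary protein genes ran the other way, with 0.0591 to 1.26% of TPM in CAC livers, 4.96 to 8.36% in NCAC livers and 1.38 to 7.47% in Con livers. Every CAC liver lay outside the NCAC range for both sums. In a bulk liver sample, fewer cells of a type and less RNA per cell cannot be told apart.

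Tests used limma on log2(TPM + 1), fitted to all 62 libraries, with p-values adjusted by the Benjamini-Hochberg method over all 12160 genes. Differences are given on that log2 scale with their standard error, which understates the change of genes near or under 1 TPM. At an adjusted p under 0.05, CAC livers exceeded NCAC livers in 796 genes (6.55% of those tested) and fell below them in 674 (5.54%), with a median difference over all genes of -0.03. A change of at least 2-fold on this scale was reached by 193 of the higher genes (1.59%) and 156 of the lower genes (1.28%). Without regard to the test, every CAC library lay above every NCAC library for 717 genes (5.9%) and below for 716 (5.89%). Leaving out CAC replicate 1 gave 572 higher and 364 lower genes, and leaving out both CAC replicates 1 and 3, a choice made after seeing the data, gave 460 and 224.

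**Figure D1:**
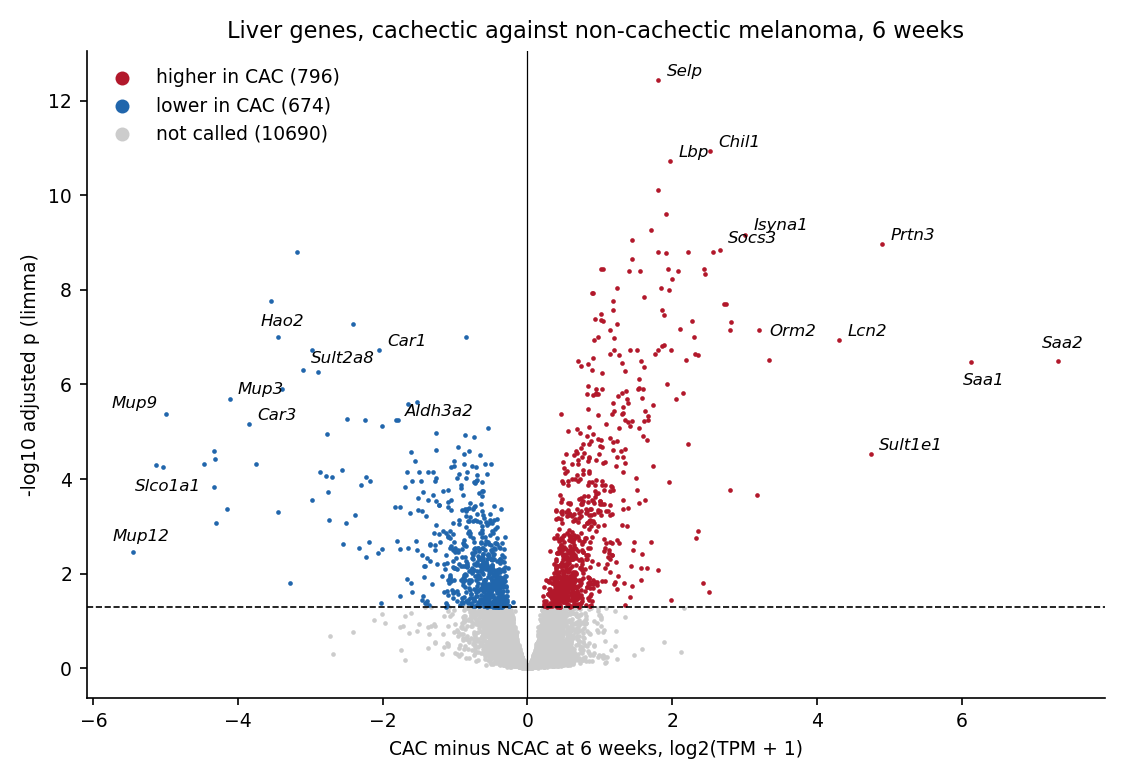
Difference between CAC and NCAC livers at 6 weeks on the log2(TPM + 1) scale (horizontal) against −log10 of the adjusted p from limma (vertical), 1 point for each of the 12160 genes, with the 796 higher and 674 lower genes coloured and some named genes labelled. The serum amyloid A genes lie farthest to the right, Saa2 at 7.34, and the major urinary protein genes farthest to the left.

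Every library of the table sums to the same TPM, so read depth is unknown. In the 10 libraries, 10899 to 11098 (CAC) and 10769 to 11057 (NCAC) genes reached 1 TPM, and the 20 highest genes held 37.5 to 44.3% and 40.5 to 44.3% of TPM. Hepatocyte identity was plain in each: albumin stood at 72170 to 102500 TPM in CAC and 71230 to 102600 TPM in NCAC livers. CAC replicate 1 also held pancreatic and muscle transcripts, with 146 TPM of the pancreatic protease precursor Ctrb1 and 78.0 TPM of skeletal actin Acta1, against at most 10.4 and 0.106 TPM in NCAC livers. CAC replicate 3 stood apart in clock genes, with 19.0 TPM of Arntl against 0.546 to 2.48 TPM in the other CAC livers and 0.592 to 1.45 TPM in NCAC livers, and with 2.84 TPM of Dbp against 45.6 to 92.0 TPM in the other CAC livers. Con replicates 4 and 5 of week 6 held such transcripts too, with 174 TPM of Ctrb1 in the first and 486 TPM of Acta1 in the other.

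Of 12 melanocyte and melanoma markers listed 4 were tested, and none passed. The summed level of the 12 was 177 to 311 TPM in CAC, 160 to 247 TPM in NCAC and 170 to 208 TPM in Con livers, mostly the calcium-binding protein gene S100a1, at 169 to 296 TPM in CAC and 149 to 232 TPM in NCAC livers (0.27 ± 0.17, adjusted p = 0.35). Of the pigment genes, Dct stood at 6.74 to 14.5 TPM in CAC, 7.95 to 21.9 TPM in NCAC and 7.76 to 10.8 TPM in Con livers (-0.44 ± 0.25, adjusted p = 0.292), Pmel did not exceed 0.785 TPM in CAC or NCAC livers, and Mlana, Tyr and Tyrp1 were at 0 in all 15 libraries of week 6.

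The acute phase list gave the largest group of increases. Of its 34 tested genes 28 rose, by 0.41 to 7.34 on the log2 scale, none fell, and the median difference was 1.61. Without CAC replicate 1 the count was 27, and without CAC replicates 1 and 3 it was 25. The genes of this list were written down with earlier results of the same libraries known, so the count describes the list and does not test it.

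Serum amyloid A1 and A2, apolipoproteins of high-density lipoprotein in inflammation, lie side by side on mouse chromosome 7 (Saa1 at chr7:46740497-46742980 and Saa2 at chr7:46751790-46754313, mm10). Saa1 stood at 22924, 8332, 19964, 10072 and 9568 TPM in CAC replicates 1 to 5, against 154, 857, 67.3, 80.3 and 291 TPM in NCAC replicates 1 to 5. Every CAC liver exceeded every NCAC liver, and NCAC replicate 2 was the highest of its group. The log2 difference was 6.13 ± 0.85 (SE), with an adjusted p of 3.41e-07. Saa2 stood at 24975, 6276, 21161, 9785 and 7929 TPM in CAC livers, against 66.6, 307, 28.9, 25.8 and 137 TPM in NCAC livers, with a log2 difference of 7.34 ± 1.02 and an adjusted p of 3.15e-07. The 2 genes are near-identical copies, so reads can be shared between them and their separate values are uncertain. Con replicate 1 held 1488 TPM of Saa1, far above the other Con livers at 41.7 to 87.9 TPM.

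Lcn2, which binds bacterial siderophores and is also a neutrophil granule protein (chr2:32384633-32388252), stood at 1081, 402, 893, 552 and 480.2 TPM in CAC livers, against 22.5, 79.2, 17.4, 27.7 and 33.1 TPM in NCAC livers. The groups did not overlap, and the log2 difference was 4.31 ± 0.57 (adjusted p = 1.14e-07). Orm2, an orosomucoid that carries small lipophilic molecules in plasma, stood at 1865, 1072, 1413, 1533 and 1112 TPM in CAC livers and 101, 357, 97.7, 126 and 161 TPM in NCAC livers, a log2 difference of 3.20 ± 0.41 (adjusted p = 6.99e-08). Apcs, serum amyloid P and the main acute phase pentraxin of the mouse, rose by 2.81 ± 0.36 (adjusted p = 4.71e-08), with 1877 to 4292 TPM in CAC livers and 339.6 to 577 TPM in NCAC livers. Crp, a pentraxin that responds weakly in mice, rose by only 0.59 ± 0.14 (adjusted p = 0.00202), with 253 to 393 TPM in CAC livers and 184 to 218 TPM in NCAC livers. Crp was named after its values were seen.

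Lbp, the plasma protein that passes lipopolysaccharide to CD14, had the smallest p of the list (chr2:158306493-158332852). It stood at 175, 136, 187, 161 and 129 TPM in CAC livers, against 43.1, 40.3, 44.4, 31.7 and 37.6 TPM in NCAC livers. The gap between the groups was far wider than the spread within either, and the log2 difference was 1.97 ± 0.18 (adjusted p = 1.92e-11). Haptoglobin (Hp), which binds free haemoglobin, stood at 18156, 12077, 16637, 15009 and 10172 TPM in CAC livers and 3275, 3997, 3538, 3702 and 3263 TPM in NCAC livers, a log2 difference of 1.99 ± 0.23 (adjusted p = 6.03e-09). Hemopexin (Hpx), which binds free haem, stood at 13348 to 20594 TPM in CAC livers, above 4288 to 5994 TPM in NCAC livers, and rose by 1.71 ± 0.18 (adjusted p = 5.54e-10). Itih3, a heavy chain of the inter-alpha-trypsin inhibitor that stabilises hyaluronan, stood at 1841 to 2923 TPM in CAC livers, above 434 to 544 TPM in NCAC livers, and rose by 2.22 ± 0.24 (adjusted p = 1.59e-09).

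Fibrinogen, the clottable protein of plasma, is built from chains encoded next to each other on chromosome 3. The alpha chain gene Fga (chr3:83026076-83033627) stood at 12212, 7048, 9055, 11540.2 and 7410.0 TPM in CAC livers, against 2423, 2673, 2449, 2293 and 2362 TPM in NCAC livers. The beta chain gene Fgb (chr3:83040141-83049863) stood at 12095, 9187, 9579, 12153 and 6152 TPM in CAC livers, against 2218, 3060.0, 3097, 2007 and 2451 TPM in NCAC livers. Neither chain overlapped between the groups. In mean TPM Fga was 3.87-fold and Fgb 3.83-fold higher in CAC livers, with log2 differences of 1.92 ± 0.19 (adjusted p = 2.47e-10) and 1.92 ± 0.21 (adjusted p = 1.65e-09).

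The start regions of Fga, Fgb, Saa1 and the risen chemokine gene Cxcl1, given below, are shown because the factors named above are known to act at acute phase promoters. They run from 250 bases before to 50 bases after the annotated start, were taken from RefSeq on GRCm38.p6 (the mm10 assembly) and are written 5′ to 3′ on the strand of the gene. Capitals mark matches on either strand to the STAT letters TTCNNNGAA, the C/EBP letters TTGCNNAA or the NF-kB letters (GGG, any 2 bases, TTTCC), and no 2 of the marked matches overlap. Fga (chr3:83025903-83026202, plus strand) has a STAT match starting 234 bases and a C/EBP match starting 135 bases before the start. Fgb (chr3:83049814-83050113, minus strand) has the same pair at 162 and 80 bases, Saa1 (chr7:46742931-46743230, minus strand) has a C/EBP match at 182 bases, and the chemokine gene Cxcl1 (chr5:90890995-90891294, plus strand) has 2 NF-kB matches at 89 and 71 bases.
Fga: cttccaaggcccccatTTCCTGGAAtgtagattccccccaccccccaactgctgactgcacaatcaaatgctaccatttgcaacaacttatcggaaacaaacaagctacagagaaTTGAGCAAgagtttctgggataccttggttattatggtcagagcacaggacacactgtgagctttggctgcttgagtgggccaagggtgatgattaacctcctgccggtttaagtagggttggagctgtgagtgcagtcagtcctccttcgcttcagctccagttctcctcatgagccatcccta
Fgb: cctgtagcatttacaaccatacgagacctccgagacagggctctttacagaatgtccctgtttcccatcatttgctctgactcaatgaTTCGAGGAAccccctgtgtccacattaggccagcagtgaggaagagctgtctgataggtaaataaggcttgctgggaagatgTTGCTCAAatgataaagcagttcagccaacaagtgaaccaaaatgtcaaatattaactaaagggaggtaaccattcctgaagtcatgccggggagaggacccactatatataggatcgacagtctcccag
Saa1: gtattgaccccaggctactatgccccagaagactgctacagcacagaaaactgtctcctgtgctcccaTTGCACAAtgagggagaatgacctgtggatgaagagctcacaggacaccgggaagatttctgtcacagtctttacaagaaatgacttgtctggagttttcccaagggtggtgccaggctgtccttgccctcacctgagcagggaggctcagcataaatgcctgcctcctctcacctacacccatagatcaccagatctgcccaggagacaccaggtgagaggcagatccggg
Cxcl1: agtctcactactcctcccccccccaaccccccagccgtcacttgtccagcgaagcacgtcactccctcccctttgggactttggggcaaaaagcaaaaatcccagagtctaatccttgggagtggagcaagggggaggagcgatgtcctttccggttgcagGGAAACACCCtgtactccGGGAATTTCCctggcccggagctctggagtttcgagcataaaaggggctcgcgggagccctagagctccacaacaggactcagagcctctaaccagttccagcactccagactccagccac

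Among the 26 tested acute phase genes with such a sequence, 16 (61.5%) held the C/EBP letters, against 12.2% of all 27025 genes with a RefSeq promoter of the same length and 10.8% of the 9077 tested genes with one. The STAT letters stood in 7 (26.9%) against 9.55% of all and 8.57% of tested genes, and the NF-kB letters in 3 (11.5%) against 1.89% and 1.96%. A gene with several promoters counted once, as holding the letters if any of them did. Over the called genes with a promoter, 12.4% of higher and 5.87% of lower genes held the STAT letters, 15.8% and 15.1% the C/EBP letters, and 3.76% and 1.76% the NF-kB letters. Every sequence shown above holds a match, whereas those of some other risen genes, such as Itih3, Osmr and Mt1, hold none of these letters. A match is only a run of letters, and binding at these positions was not measured.

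**Figure D2:**
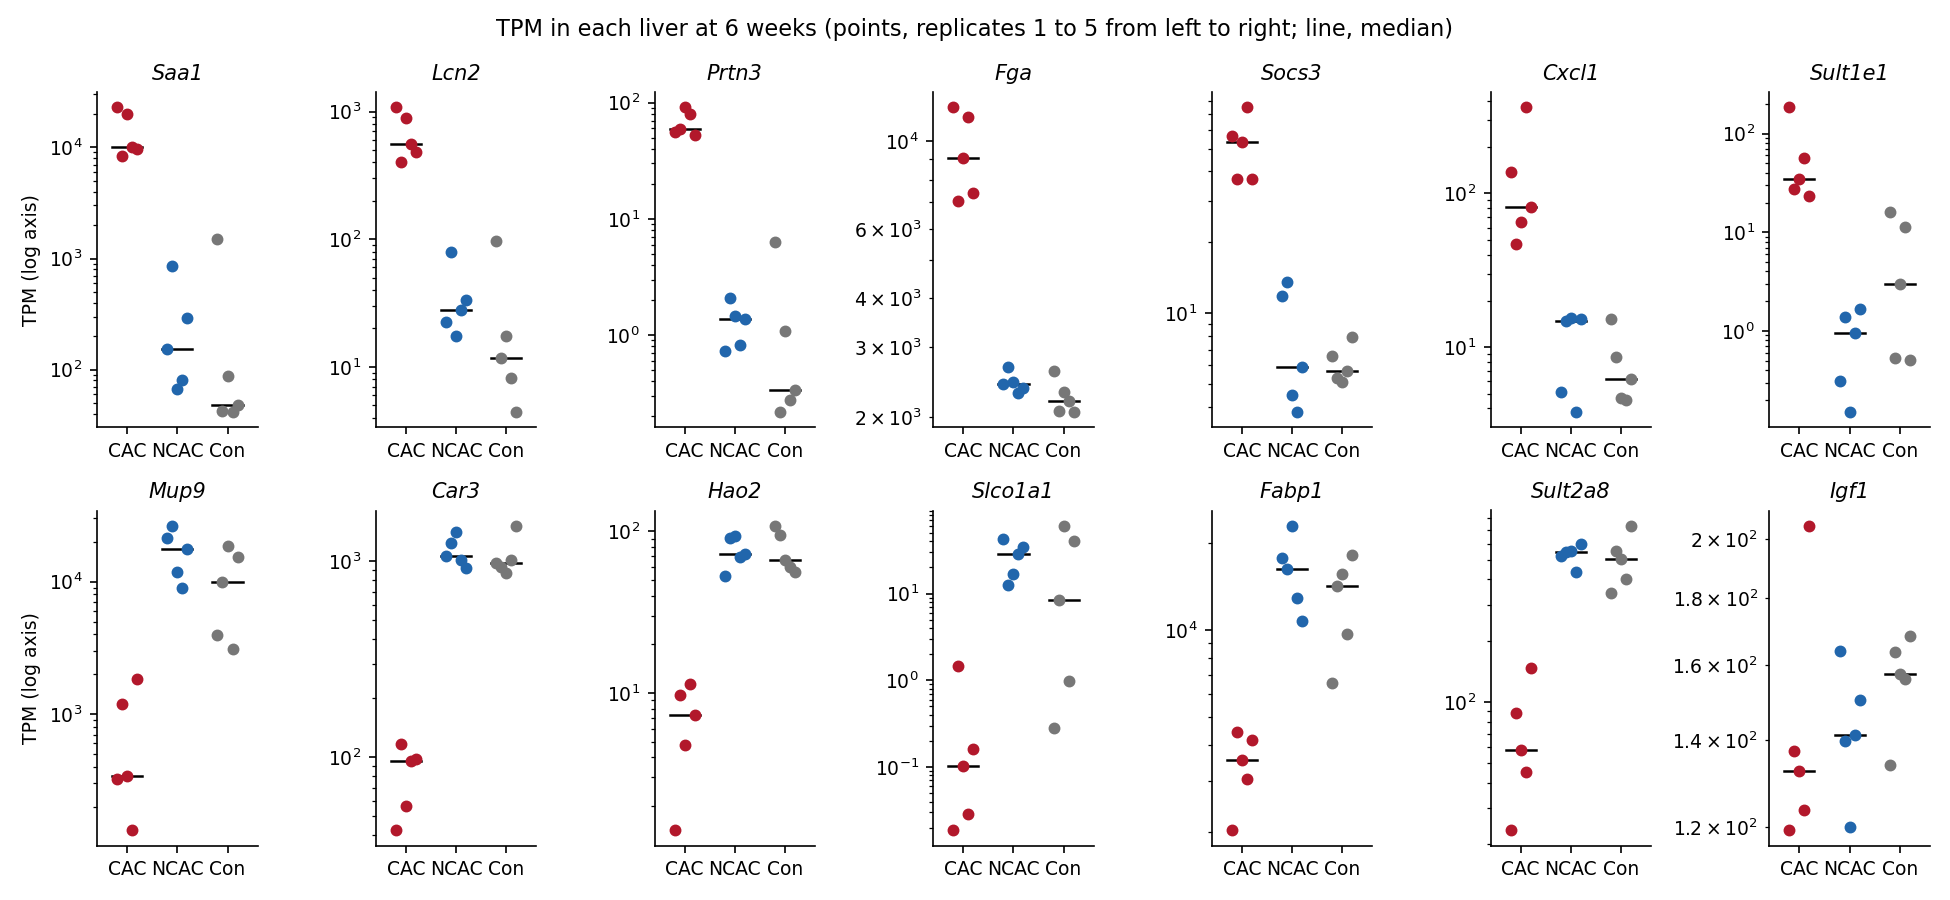
TPM on a log axis in each liver at 6 weeks, 1 point for each library with CAC left of NCAC and Con, for 14 genes, with a line at each median. The 5 CAC points lie above the 5 NCAC points for Saa1, Lcn2, Prtn3, Fga, Socs3, Cxcl1 and Sult1e1 and below them for Mup9, Car3, Hao2, Slco1a1, Fabp1 and Sult2a8, while Igf1 overlaps.

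The signalling genes of the interleukin-6 family moved with the plasma proteins: 11 of 23 tested genes rose and 1 fell, with a median of 0.67. Socs3, the feedback inhibitor that STAT3 itself induces (chr11:117966079-117970047), stood at 56.4, 37.3, 53.1, 74.9 and 37.2 TPM in CAC livers, against 11.9, 13.6, 4.50, 3.80 and 5.91 TPM in NCAC livers. All 5 CAC livers lay above all 5 NCAC livers, and the log2 difference was 2.66 ± 0.29 (adjusted p = 1.41e-09). Stat3 rose by 0.91 ± 0.14 (adjusted p = 1.69e-06), with 38.2 to 48.1 TPM in CAC livers and 18.6 to 27.1 TPM in NCAC livers. Cebpd, a C/EBP factor induced in inflammation, rose by 2.15 ± 0.32 (adjusted p = 1.48e-06), with 12.1 to 23.4 TPM against 1.94 to 4.29 TPM.

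The receptors of the family did not move alike. Osmr, the oncostatin M receptor, stood at 1.81 to 3.46 TPM in CAC livers and 0.279 to 0.530 TPM in NCAC livers and rose by 1.24 ± 0.16 (adjusted p = 5.2e-08). The shared chain Il6st stood at 58.3, 48.2, 52.4, 43.6 and 52.2 TPM in CAC livers and 28.1, 24.8, 16.9, 19.95 and 24.3 TPM in NCAC livers and rose by 1.14 ± 0.19 (adjusted p = 1.36e-05). Lifr, the leukaemia inhibitory factor receptor, was the 1 member that fell, with 26.1, 25.2, 25.9, 20.3 and 35.6 TPM in CAC livers and 63.8, 59.04, 64.6, 47.03 and 77.5 TPM in NCAC livers (-1.20 ± 0.28, adjusted p = 0.00213). The groups did not overlap for any of these 3 receptors. Il6ra, the specific interleukin-6 receptor chain, stood at 15.2 to 34.9 TPM in CAC and 13.4 to 29.5 TPM in NCAC livers and did not pass the test (0.33 ± 0.36, adjusted p = 0.651). Il6st and Lifr were named after their values were seen.

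Of the NF-kB targets and chemokines, 5 of 21 tested genes rose and 1 fell, with a median of 0.07, so the list as a whole stood near the median of all genes, and 3 rose without CAC replicate 2. Cxcl1, a neutrophil attractant (chr5:90891241-90893115), stood at 139, 46.5, 65.6, 363 and 81.7 TPM in CAC livers, against 5.11, 14.8, 15.5, 3.79 and 15.2 TPM in NCAC livers. CAC replicate 4 was the highest, the groups did not overlap, and the log2 difference was 3.34 ± 0.46 (adjusted p = 3e-07). Cxcl14, a chemokine of epithelia, stood at 15.2, 10.8, 22.7, 11.9 and 5.58 TPM in CAC livers, against 0.942, 0.639, 1.26, 0.707 and 0.944 TPM in NCAC livers (2.79 ± 0.36, adjusted p = 6.99e-08). The adhesion molecules Icam1 (0.89 ± 0.17, adjusted p = 0.000116) and Vcam1 (0.90 ± 0.30, adjusted p = 0.0371) and the inhibitor Nfkbib (0.42 ± 0.13, adjusted p = 0.0192) also rose. Sod2, the mitochondrial superoxide dismutase, fell by 0.35 ± 0.12 (adjusted p = 0.0379). Vcam1 and Sod2 were named after their values were seen.

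Plasma protease systems rose in part. Of 25 tested complement genes 7 rose and 2 fell (median 0.30), and of 21 tested coagulation and fibrinolysis genes 7 rose and 2 fell (median 0.18), where the coagulation sum took 1.502 to 1.81% of TPM in CAC livers, 1.02 to 1.16% in NCAC livers and 0.969 to 1.24% in Con livers. C3, the central complement component, stood at 8854, 6566, 8059.7, 7233 and 6885 TPM in CAC livers, against 3652, 4045, 4232, 5172 and 4092 TPM in NCAC livers, and rose by 0.83 ± 0.12 (adjusted p = 1.6e-06). C4b rose by 0.76 ± 0.13 (adjusted p = 1.82e-05) and Cfi, the protease that cleaves active C3b, by 0.57 ± 0.11 (adjusted p = 0.000108). C7, a piece of the membrane attack complex, was low throughout, at 2.97 to 7.47 TPM in CAC and 0.443 to 1.35 TPM in NCAC livers, and rose by 1.77 ± 0.24 (adjusted p = 2.23e-07). None of these 4 overlapped between the groups, and without CAC replicates 1 and 3 the counts were 5 and 0 for complement and 6 and 0 for coagulation.

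Cpb2, which encodes an inhibitor of clot lysis, stood at 1000.5, 929, 1118, 1038 and 881 TPM in CAC livers, against 438, 501, 515, 513 and 485 TPM in NCAC livers. Its log2 difference was 1.01 ± 0.12 (adjusted p = 3.67e-09), and the groups were well apart. The kininogens Kng1 (1.15 ± 0.15, adjusted p = 6.99e-08) and Kng2 (1.04 ± 0.12, adjusted p = 3.67e-09), near relatives that can share reads, and the histidine-rich glycoprotein Hrg (1.03 ± 0.15, adjusted p = 5.65e-07) rose by a like amount. Klkb1 (-0.72 ± 0.18, adjusted p = 0.00343) and F11 (-0.54 ± 0.19, adjusted p = 0.0466), proteases of the contact pathway named after their values were seen, fell.

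Metal and stress-hormone genes rose in part, with 7 of 23 tested metal-handling genes higher and 1 lower (median 0.15). Of 24 tested glucocorticoid-response genes 8 were higher and none lower (median 0.57). The glucocorticoid-response count fell to 4 without CAC replicate 1 and was 5 without CAC replicates 1 and 3. These lists are not separate sets of genes. Mt1 and Mt2 counted in both, Cebpd also in the interleukin-6 list and Sult1e1 also in the sex-biased list below. The metallothionein Mt2, which binds zinc and copper, stood at 4685, 1715, 1799, 4113 and 2932 TPM in CAC livers, against 872, 448, 73.6, 145 and 684 TPM in NCAC livers, a log2 difference of 3.17 ± 0.63 (adjusted p = 0.000217). NCAC replicates spanned more than a factor of 10, yet none reached the lowest CAC liver. Mt1 followed at 2433 to 5166 TPM in CAC and 166 to 1014 TPM in NCAC livers (2.79 ± 0.54, adjusted p = 0.000171). Tfr2, the iron-sensing transferrin receptor of hepatocytes, rose by 0.40 ± 0.08 (adjusted p = 0.00044), and Slc39a4, a zinc importer, fell by 0.81 ± 0.17 (adjusted p = 0.0004). Hepcidin (Hamp), the iron hormone that interleukin-6 can induce, did not pass the test, with 1331, 4137, 2867, 3452 and 2341 TPM in CAC livers and 1175, 229.7, 1302, 2546 and 2587 TPM in NCAC livers (1.16 ± 0.81, adjusted p = 0.416).

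Several of the largest increases belonged to genes that were low in NCAC livers. Sult1e1, the estrogen sulfotransferase (chr5:87575969-87591594), stood at 185, 27.2, 34.7, 57.1 and 23.1 TPM in CAC livers, against 0.312, 1.39, 0.151, 0.957 and 1.68 TPM in NCAC livers, a log2 difference of 4.74 ± 0.83 (adjusted p = 3.01e-05). Every CAC liver was at least 10 times the highest NCAC liver. Isyna1, which makes inositol phosphate from glucose 6-phosphate, stood at 27.4 to 109 TPM in CAC and 4.03 to 9.57 TPM in NCAC livers (3.01 ± 0.32, adjusted p = 6.78e-10). Rasd1, a Ras-like protein induced by dexamethasone, stood at 5.31 to 10.1 TPM in CAC and 0.0874 to 0.516 TPM in NCAC livers (2.75 ± 0.34, adjusted p = 1.99e-08). Csf2rb2, the mouse interleukin-3 receptor beta chain, stood at 7.46 to 24.5 TPM in CAC and 0.763 to 1.36 TPM in NCAC livers (2.72 ± 0.33, adjusted p = 2e-08).

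Major urinary proteins are small carriers of scent molecules that mouse liver secretes into urine under the control of pulsatile growth hormone. Of 18 tested genes of the family 14 fell, with differences of -5.45 to -1.76 on the log2 scale, none rose, and the median was -4.14. Without CAC replicates 1 and 3 the count was 13. Mup3 (chr4:62083476-62087342) stood at 44.4, 464, 255, 135 and 494 TPM in CAC livers, against 3975, 4085, 3374, 2605 and 4029 TPM in NCAC livers, a log2 difference of -4.12 ± 0.62 (adjusted p = 1.99e-06). Mup9 (chr4:60418046-60421952) stood at 321, 1201, 341, 132 and 1845 TPM in CAC livers, against 21439.7, 26438, 11851, 8999 and 17768 TPM in NCAC livers (-5.00 ± 0.78, adjusted p = 4.23e-06). The highest CAC liver stayed below the lowest NCAC liver for both. The copies lie together on chromosome 4 and are nearly identical in sequence, so reads can be assigned to the wrong copy and single values are uncertain. The family sum given above does not depend on how reads were split among the listed copies. Reads given to unlisted copies or discarded would still alter it. Con livers spread widely, with 809, 2703, 1465, 916 and 3805 TPM of Mup3 in Con replicates 1 to 5.

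Genes with sex-biased or growth-hormone-dependent liver expression were more often lower than higher in CAC livers, with 12 of 29 tested lower, 3 higher and 14 that did not pass, and a median of -1.11. Without CAC replicate 1 the counts were 10 and 3. Hao2, a peroxisomal hydroxyacid oxidase (chr3:98874521-98893239), stood at 1.41, 9.71, 4.75, 11.3 and 7.32 TPM in CAC livers, against 53.1, 91.3, 93.2, 69.3 and 72.1 TPM in NCAC livers (-3.46 ± 0.45, adjusted p = 9.77e-08). Car3, a carbonic anhydrase abundant in liver and fat (chr3:14863512-14872523), stood at 42.3, 117, 56.2, 95.8 and 97.5 TPM in CAC livers, against 1064, 1235, 1419, 1012 and 924 TPM in NCAC livers (-3.85 ± 0.62, adjusted p = 6.8e-06). For both genes the highest CAC liver lay far below the lowest NCAC liver. Slco1a1, an organic anion uptake transporter (chr6:141907282-141946962), stood at 0.0186, 1.45, 0.102, 0.0291 and 0.162 TPM in CAC livers, against 42.4, 12.6, 16.96, 28.3 and 34.2 TPM in NCAC livers (-4.33 ± 0.83, adjusted p = 0.000147). Con livers ranged over 0.279 to 60.5 TPM of Slco1a1, which overlapped both tumour groups.

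Other members of that list with the smallest p were Ces2c, a carboxylesterase (-2.02 ± 0.33, adjusted p = 7.72e-06), and Cyp2b9, a female-biased P450 (-1.61 ± 0.28, adjusted p = 2.73e-05). Among the higher members were Sult1e1 and Nnmt, which methylates nicotinamide (2.33 ± 0.54, adjusted p = 0.00175). Of 18 tested genes of the growth hormone and IGF-1 axis, 2 fell and 1 rose (1 and none without CAC replicate 1), with a median of 0.00. The growth hormone receptor Ghr stood at 40.4, 61.1, 61.6, 57.7 and 80.5 TPM in CAC livers, against 103, 102, 96.2, 96.6 and 104 TPM in NCAC livers (-0.76 ± 0.16, adjusted p = 0.000778), and the prolactin receptor Prlr fell by 0.68 ± 0.19 (adjusted p = 0.0107). Igf1, the hormone that the growth hormone receptor induces in hepatocytes, did not pass the test, with 119, 137, 132, 124 and 205 TPM in CAC livers and 164, 139.9, 120.1, 141 and 150.4 TPM in NCAC livers (-0.02 ± 0.13, adjusted p = 0.955). The sign of the Igf1 difference changed under median-of-ratios and quantile rescaling. Igfbp1, a stress-responsive binding protein of IGF-1, rose by 2.42 ± 0.71 (adjusted p = 0.0159), with 162, 322, 17.4, 142 and 105 TPM in CAC livers and 21.5, 22.7, 17.1, 26.1 and 11.8 TPM in NCAC livers, where CAC replicate 3 lay within the NCAC range. Nnmt was named after its values were seen.

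Genes of fatty acid oxidation and other targets of the nuclear receptor PPAR-alpha fell as a group: 28 of 45 tested genes were lower and none higher, with a median of -0.72. The count was 21 without CAC replicate 1 and 15 without CAC replicates 1 and 3, and it rose to 36 when TPM was rescaled without the 20 highest genes. The sum over the listed genes took 0.611 to 1.05% of TPM in CAC livers, 1.80 to 3.25% in NCAC livers and 1.39 to 2.87% in Con livers. Fabp1, the fatty acid carrier of the hepatocyte cytosol (chr6:71199827-71205023), stood at 2030.3, 4455, 3568, 3062 and 4161 TPM in CAC livers, against 17739.8, 16310.4, 22969, 12971 and 10769 TPM in NCAC livers. The groups did not overlap, and the log2 difference was -2.23 ± 0.41 (adjusted p = 9.03e-05). Fabp1 made up most of the list sum in NCAC livers and a smaller part in CAC livers. The fall of that sum was therefore mainly the fall of Fabp1, whereas the count of lower genes does not rest on it.

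Acaa1b, a peroxisomal thiolase, stood at 31.9, 187, 143, 88.1 and 229 TPM in CAC livers, against 1032, 728, 1035, 739 and 488 TPM in NCAC livers (-2.78 ± 0.52, adjusted p = 8.6e-05). The groups did not overlap. Aldh3a2, which oxidises fatty aldehydes, fell by 1.81 ± 0.29 (adjusted p = 5.74e-06), and Hadhb, a subunit of the mitochondrial trifunctional protein, fell by 0.83 ± 0.15 (adjusted p = 7.07e-05). The receptor gene Ppara itself did not pass the test, at 19.7 to 57.9 TPM in CAC and 48.1 to 77.8 TPM in NCAC livers (-0.90 ± 0.47, adjusted p = 0.246), nor did Cpt1a, which admits fatty acids to mitochondria (-0.38 ± 0.28, adjusted p = 0.448). Angptl4, a PPAR target that inhibits lipoprotein lipase, did not pass either (-0.10 ± 0.35, adjusted p = 0.906), and its sign turned when CAC replicate 3 was left out. Ppara and Cpt1a were named after their values were seen.

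Of 34 tested genes of fatty acid and triglyceride synthesis 9 were lower and 1 higher, with a median of -0.36, and the lower count was 6 without CAC replicate 1 and 3 without CAC replicates 1 and 3. The 4 members with the smallest p were the elongases Elovl2 (-1.13 ± 0.26, adjusted p = 0.00136) and Elovl5 (-1.34 ± 0.35, adjusted p = 0.00541) and the desaturases Fads2 (-2.01 ± 0.49, adjusted p = 0.003) and Fads1 (-0.83 ± 0.22, adjusted p = 0.00592), which act on polyunsaturated fatty acids. Elovl5, Fads2 and Fads1 each missed the threshold in 1 of 22 settings. Elovl2 stood at 97.8, 152, 151, 127 and 185 TPM in CAC livers, against 287, 315, 281, 298 and 354 TPM in NCAC livers, and none of the 4 overlapped between the groups. Fatty acid synthase (Fasn) did not pass the test (-0.44 ± 0.37, adjusted p = 0.527), nor did its regulator Srebf1 (-0.52 ± 0.28, adjusted p = 0.255) or the desaturase Scd1 (0.45 ± 0.55, adjusted p = 0.692). Scd2 rose by 0.86 ± 0.23 (adjusted p = 0.00718). Fasn, Scd1 and Scd2 were named after their values were seen.

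Of the apolipoproteins and lipoprotein enzymes, 3 of 18 tested fell and 3 rose, with 1 lower without CAC replicate 1 and 1 higher without CAC replicate 3. Apoa2 missed the threshold in 4 of 21 settings and Apoc1 in 5. Hepatic lipase Lipc stood at 24.4, 84.6, 65.1, 50.2 and 73.7 TPM in CAC livers, against 189, 194, 224, 172 and 186 TPM in NCAC livers (-1.79 ± 0.28, adjusted p = 5.55e-06), and every CAC liver lay below every NCAC liver. Apoa2 (-0.60 ± 0.16, adjusted p = 0.00756) and Apoc1 (-0.41 ± 0.12, adjusted p = 0.0137), small proteins of high-density lipoprotein, fell and Apon rose (0.51 ± 0.12, adjusted p = 0.00292).

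Part of the drug-metabolising enzymes fell in CAC livers. Of 43 tested P450 genes 16 fell and 2 rose (median -0.49), and of 44 tested conjugation enzymes and NRF2 targets 15 fell and none rose (median -0.35). The lower counts were 13 and 10 without CAC replicate 1 and 8 and 7 without CAC replicates 1 and 3. The P450 genes summed to 1.57 to 2.65% of TPM in CAC livers, 2.93 to 3.08% in NCAC livers and 2.81 to 3.61% in Con livers. Cyp2c40 stood at 23.9, 86.8, 33.2, 30.3 and 28.4 TPM in CAC livers, against 325, 272, 265, 185 and 233 TPM in NCAC livers (-2.77 ± 0.46, adjusted p = 1.13e-05). Cyp2a22 (-2.25 ± 0.36, adjusted p = 5.74e-06), Cyp2c68 (-0.81 ± 0.14, adjusted p = 2.53e-05) and Cyp2c69 (-3.44 ± 0.72, adjusted p = 0.000498) fell as well, and these Cyp2 families hold close paralogs that can share reads. Cyp3a11, a main inducible P450 of mouse liver named after its values were seen, overlapped between the groups (-0.26 ± 0.34, adjusted p = 0.71).

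Among conjugating enzymes the sulfotransferase Sult2a8, which acts on bile acids in the mouse (chr7:14410686-14446769), stood at 23.4, 88.1, 58.1, 45.6 and 147 TPM in CAC livers, against 524, 546, 550.3, 437 and 598 TPM in NCAC livers. The groups were wide apart, with a log2 difference of -3.10 ± 0.44 (adjusted p = 4.84e-07). The glycosyltransferases Ugt3a1 (-1.52 ± 0.23, adjusted p = 2.39e-06), Ugt2b1 (-1.28 ± 0.24, adjusted p = 0.000108) and Ugt2b36 (-0.69 ± 0.13, adjusted p = 0.000106) fell. Of 29 tested genes of bile acid synthesis and transport 7 fell and 2 rose (median -0.25), where no gene rose without CAC replicate 3 or 4 or NCAC replicate 1, 3 or 4. Those that fell included Cyp7b1 of the alternative synthesis route, at 6.88 to 13.1 TPM in CAC and 26.3 to 30.7 TPM in NCAC livers (-1.50 ± 0.28, adjusted p = 7.24e-05), the reductase Akr1c6 (-1.27 ± 0.22, adjusted p = 2.44e-05) and the sterol carrier Scp2 (-0.62 ± 0.13, adjusted p = 0.000475). Cyp7a1, the rate-limiting enzyme of the classical route, did not pass the test, with 82.1, 87.2, 9.17, 88.3 and 91.99 TPM in CAC livers and 165, 229.8, 35.8, 223 and 161 TPM in NCAC livers (-1.28 ± 0.73, adjusted p = 0.297).

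Hepatocytes differ in their enzymes along the lobule. Of 25 tested pericentral genes 12 fell and 1 rose (median -0.57), but the lower count was 4 without CAC replicate 1 and 1 without CAC replicates 1 and 3. Of 21 tested periportal genes 5 rose and 3 fell (median 0.21). Gulo, the last enzyme of vitamin C synthesis, stood at 156, 219, 198, 193 and 204 TPM in CAC livers, against 334, 364, 347, 345 and 392 TPM in NCAC livers (-0.88 ± 0.15, adjusted p = 2.96e-05). Cyp2e1 (-0.66 ± 0.14, adjusted p = 0.000809) and Cyp1a2 (-1.01 ± 0.24, adjusted p = 0.00216), 2 abundant pericentral P450s, fell and the dicarboxylate transporter Slc13a3 rose (1.11 ± 0.23, adjusted p = 0.000469). Glul, the glutamine synthetase of the innermost pericentral cells, named after its values were seen, overlapped at 516 to 654 TPM in CAC and 529 to 686 TPM in NCAC livers (-0.10 ± 0.15, adjusted p = 0.756). The periportal P450 Cyp2f2 fell (-0.74 ± 0.17, adjusted p = 0.00209) and the protease Ctsc rose (0.76 ± 0.15, adjusted p = 0.000293). A test of 1 zone against the other was not run.

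Genes of amino acid and sugar metabolism were called in both directions, where 6.55% of all tested genes were higher and 5.54% lower. Of 61 tested genes of the urea cycle and amino acid catabolism 10 fell and 6 rose (median -0.11), with 4 lower without CAC replicate 1, 6 without NCAC replicate 5 and 23 lower when TPM was rescaled without the 20 highest genes. Arginase Arg1, the last step of the urea cycle, rose, with 3425, 3240.1, 2296, 3367 and 3309.7 TPM in CAC livers and 1744, 1501, 1413, 1737 and 2359 TPM in NCAC livers (0.84 ± 0.19, adjusted p = 0.00115), where CAC replicate 3 lay within the NCAC range. Otc, an earlier step of the same cycle, fell, with 99.1, 161, 138, 148 and 179 TPM in CAC livers and 218, 239, 242, 224 and 269.7 TPM in NCAC livers (-0.74 ± 0.12, adjusted p = 1.31e-05), without overlap. Sdsl, a serine dehydratase relative, rose (1.32 ± 0.23, adjusted p = 3.44e-05), as did the serine dehydratase Sds itself (1.03 ± 0.30, adjusted p = 0.0145), which turns serine into pyruvate. Fbp1, a gluconeogenic phosphatase, fell (-0.57 ± 0.18, adjusted p = 0.0307), while Pck1, the gluconeogenic carboxykinase, did not pass the test at 1441 to 2085 TPM in CAC and 1359 to 1996 TPM in NCAC livers (0.15 ± 0.29, adjusted p = 0.819). Sds and Fbp1 were the called genes, with Igfbp1, of the 27 tested for gluconeogenesis and insulin signalling, and none of the list passed without CAC replicate 1, which held other tissue. Fbp1 missed the threshold in 10 of 22 settings, Igfbp1 in 3 and Sds in 1. Of 32 glycolysis, glycogen and fructose genes, 3 rose and 3 fell (6 fell without CAC replicate 4).

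Hormones and secreted factors of the liver gave 7 higher and 2 lower genes of 30 tested, and 5 higher and none lower without CAC replicate 1. The higher genes included the orosomucoid Orm1, which had the smallest p of the list, and Igfbp1, already counted above. Inhbb, the activin B subunit, stood at 5.96, 3.08, 0.824, 4.56 and 3.15 TPM in CAC livers, against 0.469, 0.333, 0.364, 0.326 and 0.270 TPM in NCAC livers (1.61 ± 0.26, adjusted p = 6.03e-06), low levels without overlap. Hgf, the hepatocyte growth factor made by non-parenchymal cells, rose by 1.09 ± 0.26 (adjusted p = 0.00228) and the fetuin Fetub by 0.65 ± 0.15 (adjusted p = 0.00185), the last with NCAC replicate 4 inside the CAC range. Neither Fgf21, a fasting hormone (-0.72 ± 0.30, adjusted p = 0.117), nor Gdf15, which lowers appetite through a hindbrain receptor (-0.19 ± 0.26, adjusted p = 0.729), passed the test, and the highest level of Gdf15 in any of the 10 livers was 2.43 TPM.

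**Figure D3:**
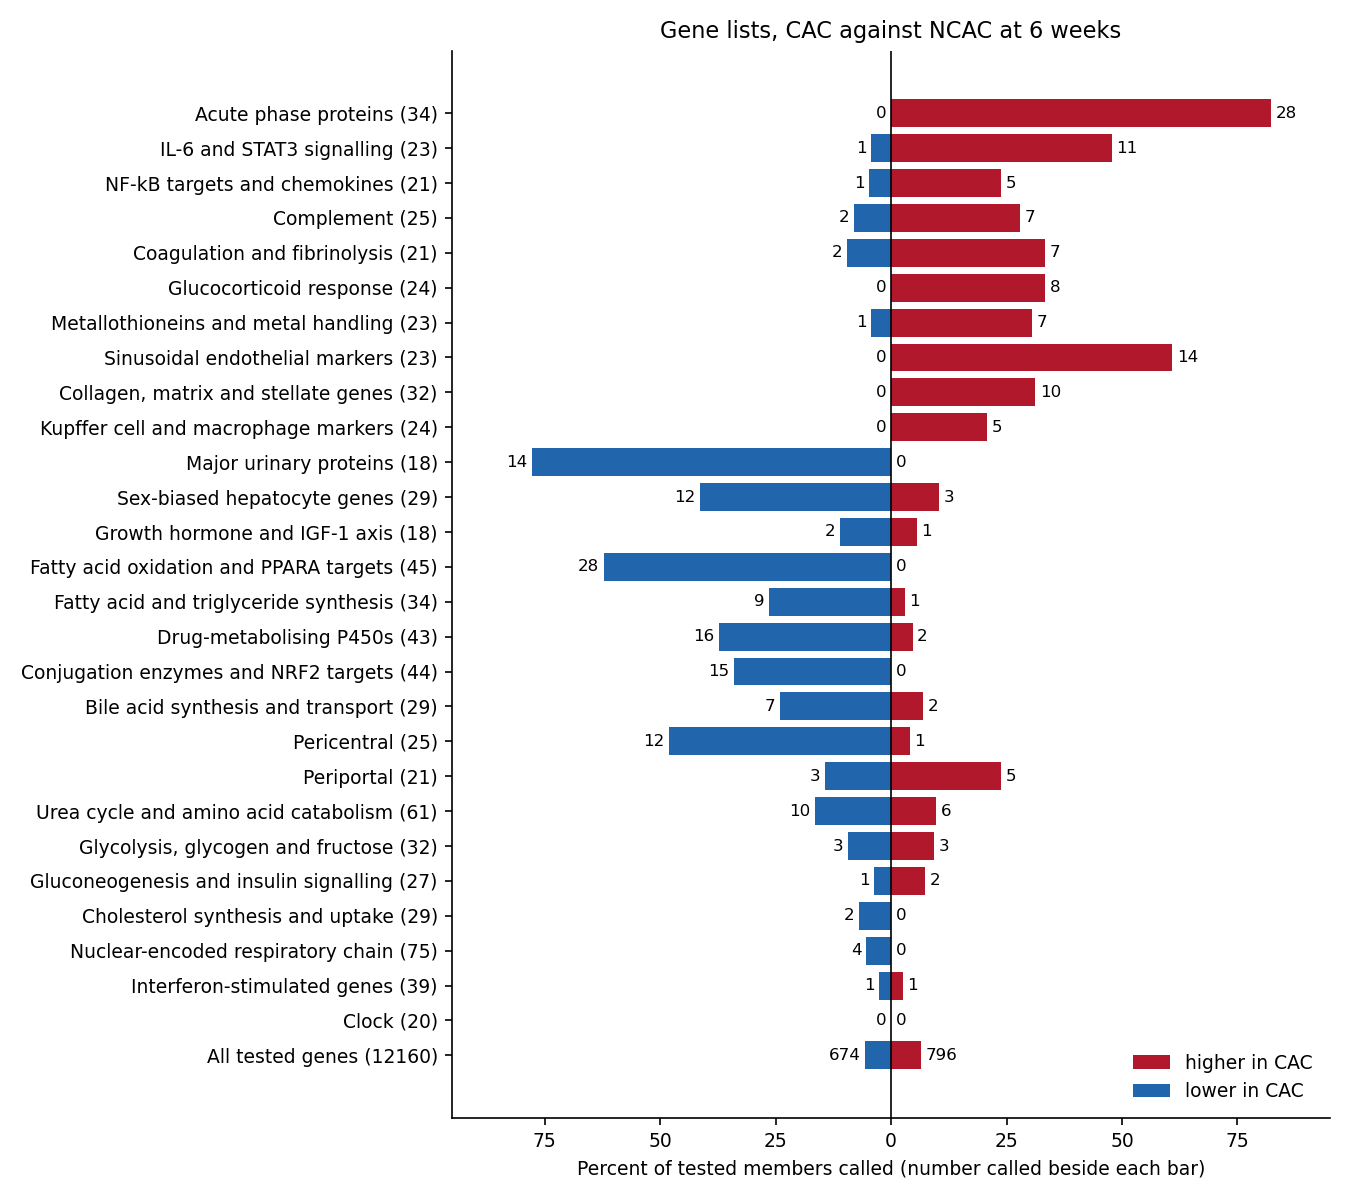
Share of tested members called higher or lower in CAC than in NCAC livers at 6 weeks, in percent, for the gene lists, with the number called beside each bar and a bar for all tested genes (6.55% higher and 5.54% lower). The acute phase, sinusoidal endothelial and interleukin-6 lists reach far to the higher side, and the urinary protein, fatty acid oxidation and pericentral lists to the lower side.

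Markers of other liver cells changed beside the hepatocyte genes. Of 23 tested sinusoidal endothelial markers 14 rose and none fell, with a median of 0.66, and 9 rose without CAC replicate 1 or without NCAC replicate 4 and 7 without CAC replicates 1 and 3. The summed level of the list was 265 to 457 TPM in CAC livers, 130 to 244 TPM in NCAC livers and 230 to 328 TPM in Con livers, so CAC livers lay above NCAC livers but overlapped Con livers. Clec4g, a lectin of sinusoidal endothelium, stood at 107, 96.3, 106, 58.7 and 73.6 TPM in CAC livers, against 43.04, 35.5, 32.5, 16.1 and 25.03 TPM in NCAC livers (1.54 ± 0.22, adjusted p = 7.66e-07). Fcgr2b, the receptor by which these cells clear immune complexes, stood at 41.6, 36.1, 35.8, 26.96 and 26.5 TPM in CAC livers, against 15.4, 13.5, 13.2, 8.42 and 12.05 TPM in NCAC livers (1.35 ± 0.19, adjusted p = 5.1e-07). Gpr182 (1.32 ± 0.20, adjusted p = 2.97e-06) and Bmp2, a signal to hepatocytes for hepcidin (0.90 ± 0.18, adjusted p = 0.000278), rose too, and NCAC replicate 4 had the lowest level of all 4 genes in its group.

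The matrix and stellate list had 10 of 32 tested genes higher and none lower (median 0.62), 8 without CAC replicate 1 and 4 without CAC replicates 1 and 3. Its summed level was 491 to 917 TPM in CAC livers, 271 to 435 TPM in NCAC livers and 378 to 673 TPM in Con livers. Timp1, an inhibitor of matrix metalloproteinases, rose by 1.55 ± 0.23 (adjusted p = 1.17e-06), at 1.25 to 6.35 TPM in CAC and 0.106 to 0.470 TPM in NCAC livers. Tgfbi (0.94 ± 0.18, adjusted p = 0.000179), the basement membrane collagen Col4a2 (1.00 ± 0.20, adjusted p = 0.000286) and the receptor Pdgfra (0.76 ± 0.15, adjusted p = 0.000305) rose, whereas Col1a1, the fibrillar collagen of scar, did not pass the test at 0.795 to 2.20 TPM in CAC and 0.731 to 1.62 TPM in NCAC livers (0.18 ± 0.35, adjusted p = 0.821). Col1a1 was named after its values were seen. Of 9 tested adipocyte markers none passed, though all 9 differences were positive (median 0.76). The adipocyte hormone Adipoq stood at 8.48, 10.5, 0, 0 and 1.60 TPM in CAC livers, against 0.201, 3.78, 0.204, 0 and 0.151 TPM in NCAC livers (1.03 ± 0.93, adjusted p = 0.554), highest in CAC replicates 1 and 2, and the part of fat tissue in the matrix counts was not tested.

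Kupffer cell and macrophage markers gave 5 higher of 24 tested and none lower (median 0.29), and 3 higher without CAC replicate 1, CAC replicate 2 or NCAC replicate 5, with summed levels of 562 to 1123 TPM in CAC, 474 to 962 TPM in NCAC and 626 to 1079 TPM in Con livers. The risen members were the lipopolysaccharide co-receptor Cd14 (1.08 ± 0.21, adjusted p = 0.000132), osteopontin Spp1 (1.06 ± 0.21, adjusted p = 0.000172), Cd9 (1.06 ± 0.26, adjusted p = 0.0033) and the scavenger receptors Msr1 (0.65 ± 0.20, adjusted p = 0.0188) and Marco (1.35 ± 0.47, adjusted p = 0.0463). Msr1 missed the threshold in 7 of 22 settings. Several of them are also made by hepatocytes or bile duct cells. Spp1 counted in the bile duct list too, where 2 of 6 tested genes rose and none fell (1 rose without CAC replicate 1). The bile duct list summed to 61.5 to 73.0 TPM in CAC, 25.4 to 52.3 TPM in NCAC and 31.1 to 49.5 TPM in Con livers. Clec4f, a lectin that marks Kupffer cells in the mouse, overlapped at 44.7 to 127 TPM in CAC and 59.9 to 133 TPM in NCAC livers (-0.10 ± 0.25, adjusted p = 0.872), and like Marco it was named after its values were seen.

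Of 8 tested neutrophil markers 4 rose, and 2 without CAC replicate 1. Prtn3, proteinase 3 of neutrophil granules (chr10:79874476-79883174), stood at 55.96, 59.3, 91.2, 79.3 and 53.05 TPM in CAC livers, against 0.736, 2.08, 1.46, 0.829 and 1.38 TPM in NCAC livers (4.90 ± 0.52, adjusted p = 1.09e-09), and CAC livers lay far above NCAC livers. The other 3 were Lcn2, given above, Retnlg (0.96 ± 0.28, adjusted p = 0.0151) and Stfa2l1 (0.73 ± 0.21, adjusted p = 0.0148), the last 2 under 6 TPM in every liver. Retnlg missed the threshold in 6 of 21 settings and Stfa2l1 in 5. The defining neutrophil gene Ly6g did not exceed 0.481 TPM in CAC and 0.0538 TPM in NCAC livers, and the granule protein gene S100a8 did not pass the test at 4.07 to 8.33 TPM in CAC and 1.14 to 6.93 TPM in NCAC livers (0.97 ± 0.40, adjusted p = 0.109). The summed level of all 21 listed markers was 502 to 1185 TPM in CAC livers, 34.3 to 115 TPM in NCAC livers and 19.7 to 130 TPM in Con livers, mostly Lcn2 and Prtn3. The part of neutrophils in the increases of Lcn2, Prtn3 and Cxcl1 was not tested.

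Among 12 tested erythroid genes Car1, a carbonic anhydrase, was the 1 that fell (3 fell without CAC replicate 2), with 0.0785, 1.55, 1.05, 1.60 and 4.76 TPM in CAC livers, against 8.17, 9.17, 9.32, 9.21 and 9.40 TPM in NCAC livers (-2.05 ± 0.28, adjusted p = 1.91e-07). The CAC livers were all below the NCAC livers. The globin gene Hbb-bs stood at 259, 1189, 307, 114 and 552 TPM in CAC and 1301, 2891, 1223, 1918 and 739 TPM in NCAC livers and did not pass the test (-2.02 ± 0.75, adjusted p = 0.0694). Erythroid markers summed to 348 to 3065 TPM in CAC, 1613 to 6480 TPM in NCAC and 876 to 2510 TPM in Con livers. Of the T and natural killer cell list 4 genes were tested and none passed, and the T cell gene Cd3e did not exceed 0.102 TPM in CAC and 0.229 TPM in NCAC livers. B and plasma cell markers had 1 of 15 tested higher, Xbp1, which hepatocytes also make, and none lower. Of the 15 differences 13 were negative (median -0.69), and the summed level was 179 to 354 TPM in CAC and 181 to 1095 TPM in NCAC livers.

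**Figure D4:**
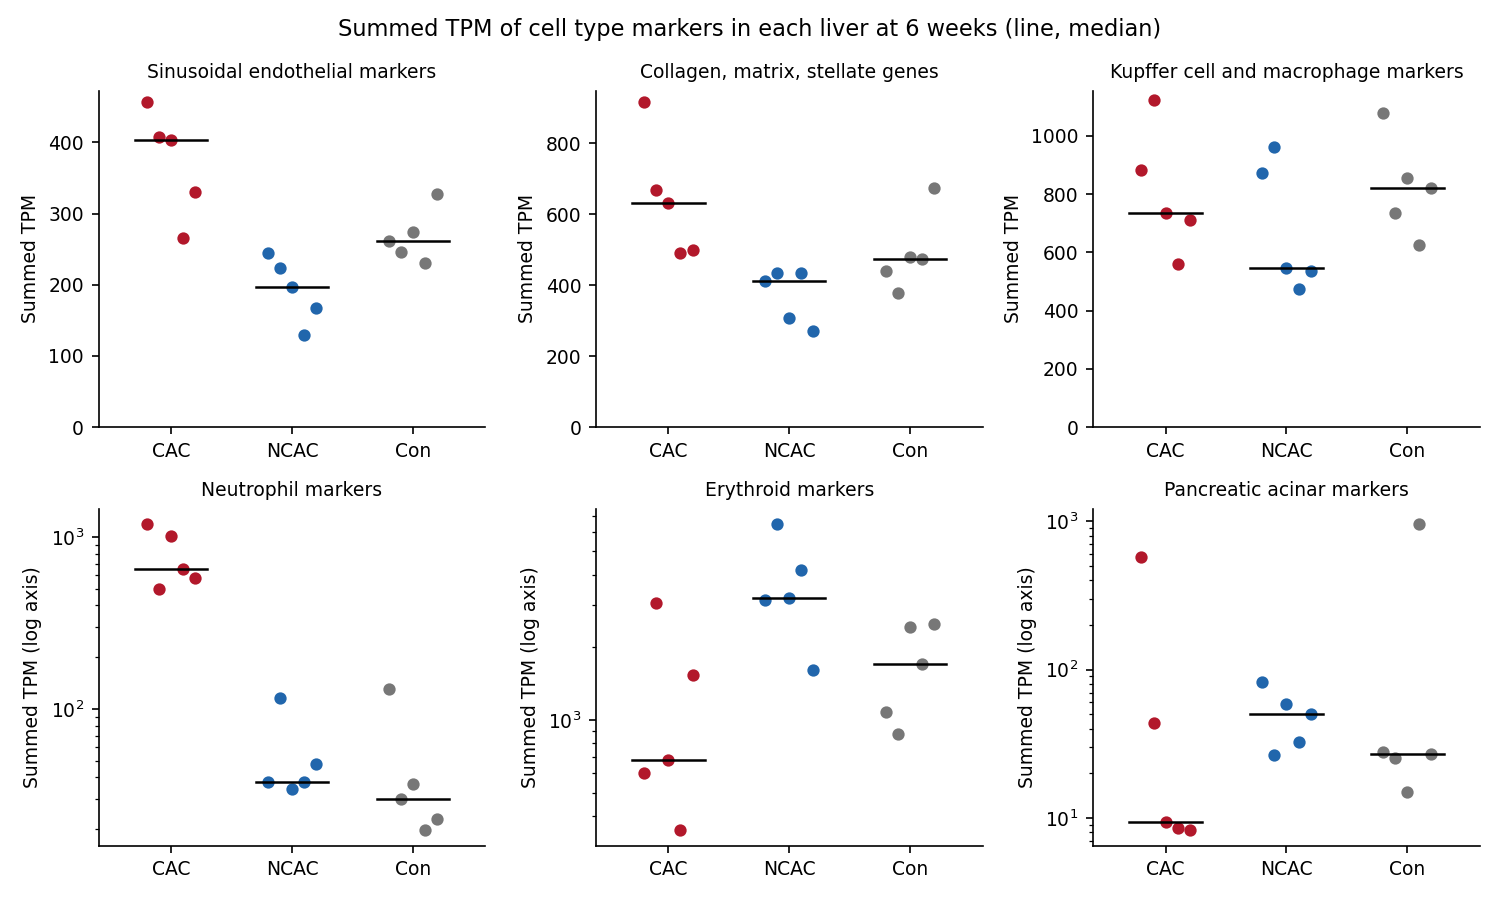
Summed TPM of 6 marker lists in each liver at 6 weeks, 1 point for each library with CAC left of NCAC and Con and a line at each median, on linear axes from 0 for endothelial, matrix and Kupffer markers and on log axes for neutrophil, erythroid and pancreatic markers. CAC livers lie above NCAC livers for endothelial (265 to 457 against 130 to 244 TPM), matrix (491 to 917 against 271 to 435 TPM) and neutrophil markers, and pancreatic markers stand out in CAC replicate 1 at 569 TPM and Con replicate 4 at 952 TPM.

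Many lists held few or no called genes, where 6.55% of all tested genes were higher and 5.54% lower. The immediate early, ATF4 and cell cycle counts below were small in number but stood well above those shares. No gene passed the test among 20 clock genes, 34 proteasome genes (3 lower without CAC replicate 2), 13 mitochondrially encoded genes or 6 class II MHC genes. Of 75 nuclear-encoded respiratory chain genes 4 were lower, a count that was 2 without CAC replicate 1, 9 without CAC replicate 5 and 40 when TPM was rescaled without the 20 highest genes. Of 39 interferon-stimulated genes 1 rose and 1 fell (neither without CAC replicate 1), of 35 ER folding genes 2 rose (Xbp1 and P4hb, and 1 without CAC replicate 3 or 4 or NCAC replicate 1 or 2), and of 30 immediate early and heat shock genes 5 rose. Of 18 genes of the ATF4 response 3 rose (Ddit4, Chac1 and Asns), none without CAC replicate 1 and 1 without NCAC replicate 5. Of 32 cell cycle genes 4 fell, 1 without CAC replicate 1 or NCAC replicate 4. Of 29 cholesterol genes 2 fell, and none did without CAC replicate 1. Under that rescaling without the 20 highest genes, among them albumin, Fabp1, several mitochondrial genes and some major urinary protein genes, the median of all genes stood at -0.18 and 551 genes were higher and 2146 lower, so counts of lower genes near the background depend on the scaling.

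Setting the same 2 arms side by side over the 4 weeks placed the 6-week response. No gene passed the test at 2 weeks (limma, 1770 at an unadjusted p under 0.05). At 4 weeks 135 genes were higher (1.11%) and 19 lower (0.156%), together 1.27%, and at 8 weeks 619 were higher (5.09%) and 5244 lower (43.1%). The balance of the 2 directions depended on the scaling: median-of-ratios rescaling gave 131 higher and 35 lower at 4 weeks and 1474 and 1568 at 8 weeks, and quantile normalization 135 and 40 at 4 weeks and 1703 and 1611 at 8 weeks. Without the 20 highest genes the counts were 103 and 65 at 4 weeks and 480 and 7210 at 8 weeks. Some livers of the other weeks also held pancreatic or muscle transcripts. Ctrb1 stood at 187, 806 and 104 TPM in NCAC replicates 3, 4 and 5 of week 4. It stood at 292 and 377 TPM in CAC replicates 1 and 4 of week 2. Acta1 stood at 31.4 and 410 TPM in NCAC replicates 1 and 5 of week 8. Without the libraries that hold other tissue, 49 genes were higher and 3 lower at 4 weeks, and 695 and 3454 at 8 weeks. The 796 genes higher at 6 weeks included 121 of the 135 higher at 4 weeks (15.2% of the first list and 89.6% of the second) and 466 of the 619 higher at 8 weeks (58.5% and 75.3%). The 674 genes lower at 6 weeks included 10 of the 19 lower at 4 weeks (1.48% and 52.6%) and 646 of the 5244 lower at 8 weeks (95.9% and 12.3%). No gene was called in opposite directions at weeks 4 and 6, and 2 were at weeks 6 and 8. The median over all genes was 0.01 at 4 weeks and -0.26 at 8 weeks, and -0.01 at 8 weeks after median-of-ratios rescaling.

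Acute phase genes were called from 4 weeks on, with 22, 28 and 29 of 34 members higher at 4, 6 and 8 weeks and medians of 1.12, 1.61 and 1.87. Saa1 differed by 3.78 ± 0.85 at 4 weeks (adjusted p = 0.00696), by 6.13 ± 0.85 at 6 weeks and by 6.87 ± 0.79 at 8 weeks (adjusted p = 1.68e-09). Lbp differed by 1.30 ± 0.18, 1.97 ± 0.18 and 2.13 ± 0.17, each past the threshold. Lower genes were called later. None of the 18 major urinary protein genes was called at 4 weeks, 14 were lower at 6 weeks and 15 at 8 weeks, with medians of -0.56, -4.14 and -3.69. None of the 45 fatty acid oxidation genes was called at 4 weeks, 28 were lower at 6 weeks and 40 at 8 weeks. No gene of either list passed the test of the 6-week less 4-week difference given below. Of the 75 respiratory chain genes 69 were lower at 8 weeks, against 4 at 6 weeks, and of the 34 proteasome genes 29 were lower at 8 weeks, against none at 6 weeks. After median-of-ratios rescaling the 8-week counts were 13 and 3, while 34 fatty acid oxidation genes and 14 major urinary protein genes were still lower at 8 weeks.

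**Figure D5:**
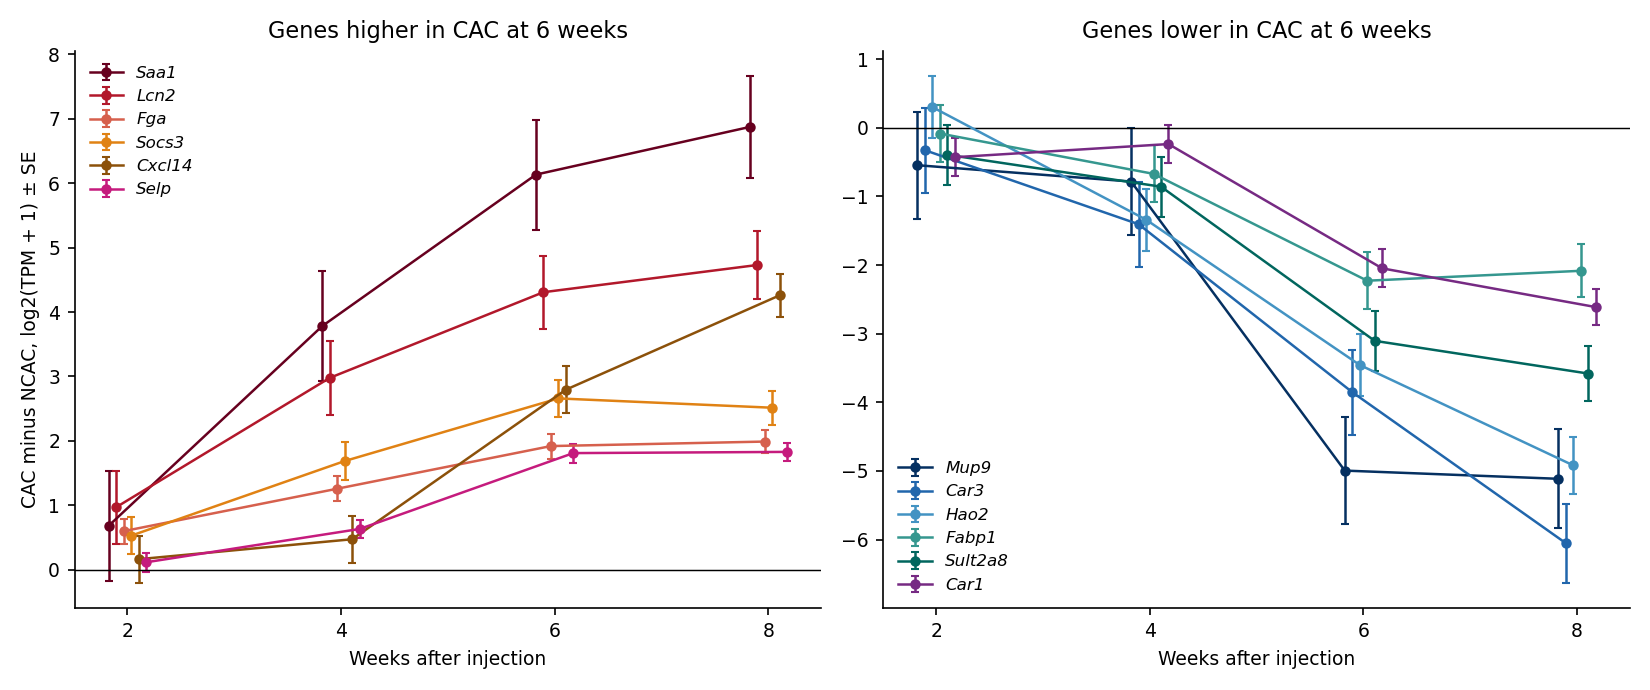
Differences between CAC and NCAC livers on the log2(TPM + 1) scale at 2, 4, 6 and 8 weeks for named genes, with bars of 1 standard error. Saa1 reaches 3.78 at 4 weeks and 6.13 at 6 weeks, whereas Mup9 stands at -0.78 at 4 weeks and -5.00 at 6 weeks.

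A difference between weeks needs its own test, and few genes passed it. For 7 genes (0.0576%) the CAC less NCAC difference was larger at 6 than at 4 weeks, and for 1 (0.00822%) it was lower, together 0.0658%. Cxcl14 differed by 0.47 ± 0.36 at 4 weeks and 2.79 ± 0.36 at 6 weeks, a change of 2.32 ± 0.51 (adjusted p = 0.0493), and Chil1, a secreted chitinase-like protein, by 0.73 ± 0.23 and 2.52 ± 0.23, a change of 1.79 ± 0.32 (adjusted p = 0.00537). The adhesion receptor P-selectin (Selp) changed by 1.18 ± 0.21 (adjusted p = 0.00537), the vasodilator peptide adrenomedullin (Adm) by 1.19 ± 0.23 (adjusted p = 0.0108) and Ramp2, a partner chain of the adrenomedullin receptor, by 1.08 ± 0.24 (adjusted p = 0.0493). The endothelial gene Ecscr changed by 1.04 ± 0.23 and Ctla2a by 1.54 ± 0.33, and Car1 changed by -1.81 ± 0.39 (adjusted p = 0.0493 for each). Selp and Adm, under 5 TPM on average in both arms, were named after their values were seen. In week 6 Selp stood at 6.76, 4.79, 3.05, 5.46 and 2.47 TPM in CAC livers, against 0.464, 0.448, 0.489, 0.752 and 0.390 TPM in NCAC livers, and Adm at 4.84, 3.50, 3.88, 2.97 and 2.36 TPM against 0.753, 0.970, 0.522, 0.826 and 0.386 TPM, without overlap for either. The count of 8 was 3 or 4 under 7 other settings, 0 with a filter at a mean of 5 TPM or without the libraries that hold other tissue, and 59 without CAC replicate 2 of week 4. Between 6 and 8 weeks no gene passed the test of the difference (limma, 2684 at an unadjusted p under 0.05).

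The mock-injected arm at 6 weeks gives these values another point of comparison, with the caution that CAC less NCAC, CAC less Con and NCAC less Con share libraries. CAC less Con had 608 genes higher (5%) and 1254 lower (10.3%), with a median over all genes of -0.12. Median-of-ratios rescaling gave 1027 higher and 691 lower genes, quantile normalization 1160 and 812, and removal of the 20 highest genes 482 and 4043. The excess of lower genes was not seen without the libraries that hold other tissue, CAC replicate 1 and Con replicates 4 and 5 among them (471 higher and 429 lower), and was small without CAC replicate 1 alone (434 and 472). In NCAC less Con no gene passed the test (limma, 1094 at an unadjusted p under 0.05), with a median of -0.08. The acute phase median was 1.90 for CAC less Con and 0.20 for NCAC less Con, and 30 of 34 genes were higher in CAC than in Con livers. For the major urinary proteins the medians were -3.35 and 0.53, with 14 of 18 genes lower in CAC than in Con livers. Fatty acid oxidation had 31 of 45 genes lower in CAC than in Con livers.

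Of 23 endothelial markers 4 were higher in CAC than in Con livers, with a median of 0.25 (8 after quantile normalization), and the median of NCAC less Con was -0.45 with none called. Among matrix and stellate genes CAC livers exceeded Con livers in 6 and fell below them in 2, with a median of 0.37 (8 and none after median-of-ratios or quantile rescaling), and the NCAC less Con median was -0.28. Clec4g stood at 33.6, 41.4, 37.9, 34.4 and 49.7 TPM in Con livers, nearer to the NCAC than to the CAC livers. Kdr, a vascular growth factor receptor named after its values were seen, stood at 9.60 to 14.4 TPM in CAC, 3.999 to 10.5 TPM in NCAC and 10.4 to 13.8 TPM in Con livers, with a difference of 0.70 ± 0.21 from NCAC (adjusted p = 0.0185) and of 0.00 ± 0.21 from Con (adjusted p = 0.99). The pair of contrasts was not tested against each other.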

How the data were processed

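The deposited table held TPM, the length-corrected share of transcripts, for 47643 gene symbols in 62 liver libraries, scaled by the authors to the same sum in each library, so read depth is unknown and no interval for counting error can be given. Libraries were made from total RNA with the TruSeq stranded mRNA kit, per the labels' protocols, and the genome build is mm10, per the submitters' processing notes. For the aligner, the quantification tool and the gene annotation, nothing is stated (not given in the sources used here). The extraction protocol in the labels also mentions another tumour cell type (LLC) and a 3-week time, which does not match the melanoma groups.

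Groups were read from the labels. Genes that reached 1 TPM in 5 or more libraries (12160) entered tests on log2(TPM + 1) with limma 3.58.1 in R 4.3.3, a mean for each of the 12 groups, trended moderation with 50 residual degrees of freedom and Benjamini-Hochberg adjustment over all 12160 genes at 0.05. On simulated data of the 6-week design with 12160 genes, 44, 76, 100 and 100% of genes changed by 0.5, 1, 2 and 3 (log2) were called, 50 of each, and 5.33% of calls were false. The simulated noise was independent between genes and had the same spread in every group. Real livers need not meet this, so these rates may not hold for them.

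Named genes are the 15 largest increases and decreases among called genes averaging 5 TPM or more in either group whose sign held when any library was left out, the leading members by p of each list, genes whose difference changed most between weeks, and a set of sentinel genes. The comparison, the 50 gene lists (1118 tested symbols) and the sentinels were chosen with earlier results of these data known. Some genes stood in several lists and were counted in each. Values of some named genes are not reported here. Gene positions come from GENCODE M21 and promoters from RefSeq (160 of 216 named genes matched). Alternatives were the pseudocount, the filter, rescaling, robust moderation, smaller fits, a minimum change, a replicate block and leaving out libraries. Figures used matplotlib 3.10.9.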

Additional observations from a re-analysis of the deposited data

Results flagged for a closer look

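Among 94 groups of 5 livers tested for a sample far from the rest (47 named genes, CAC and NCAC at 6 weeks), 7 had one whose gap to its nearest neighbour passed Dixon's critical value for 5 samples (0.71 of the range), where chance gives about 1 in 20. CAC replicate 3 was low for Cyp7a1, at 9.17 TPM against 82.1 TPM in the next liver, and for Angptl4, at 23.9 against 54.5 TPM. The same liver stood apart in the clock genes given above, and the part of the time of sampling was not tested. NCAC replicate 3 was low for Cyp7a1, at 35.8 against 161 TPM, and high for Gdf15, at 2.43 against 0.873 TPM. Igf1 was high in CAC replicate 5, at 205 against 137 TPM. Slco1a1 was high in CAC replicate 2, at 1.45 against 0.162 TPM, and Car1 was low in NCAC replicate 1, at 8.17 against 9.17 TPM.

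The difference between CAC and NCAC livers changed between weeks 4 and 6, by the interaction test in limma, for 8 genes. The 6-week less 4-week change was 1.18 on the log2 scale for Selp (adjusted p = 0.00537), 1.79 for Chil1 (adjusted p = 0.00537) and 1.19 for Adm (adjusted p = 0.0108). It was 2.32 for Cxcl14, 1.54 for Ctla2a, 1.08 for Ramp2, 1.04 for Ecscr and -1.81 for Car1 (adjusted p = 0.0493 for each). All 8 had a wider gap between the arms at 6 than at 4 weeks.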

How the results depend on the processing

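The count of genes called in CAC against NCAC livers at 6 weeks was 1470, and it stayed between 1145 and 1932 under 9 of the 13 other settings that use all or most libraries. It was 957 with a filter at a mean of 5 TPM (412 higher and 545 lower), 2697 after removal of the 20 highest genes, 349 at a minimum log2 change of 1 and 684 without CAC replicates 1 and 3. Leaving out 1 library gave 936 (without CAC replicate 1) to 1539 genes. Of the 150 named genes called, 102 were past the threshold in every setting that held them, 21 or 22 for each gene, and none reversed. The minimum log2 change of 1 was not among these settings, nor in the counts of settings given for single genes above. CAC against Con gave 4525 genes without the 20 highest genes, 325 at a minimum change of 1, 900 without the libraries that hold other tissue and 906 to 2035 with 1 library left out. CAC against NCAC gave 54, 52 and 101 to 176 genes at 4 weeks under the last 3 of these settings, and 0 to 2 at 2 weeks and 4927 to 6343 at 8 weeks with 1 library left out. At 8 weeks quantile normalization gave 3314 genes, median-of-ratios rescaling 3042 and a minimum change of 1 gave 586. NCAC against Con gave 0 to 1. The 8 genes that changed between 4 and 6 weeks were 4 with a pseudocount of 0.1 or quantile normalization, 3 without the low-value filter, with median-of-ratios rescaling, without the 20 highest genes or with robust moderation, 0 with the 5 TPM filter or without other tissue, and 2 to 59 with 1 library left out. Between 6 and 8 weeks the count was 0 to 611 (611 without NCAC replicate 4 of week 8). The cause of these shifts was not tested.

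The labels tie no replicate number to a shared litter or day, and not every pair passed a correlation of 0.1: same-numbered CAC and NCAC deviations had 0.160, 0.204, 0.0934, -0.0386 and 0.151. CAC replicates 1, 2, 3 and 5, but not 4, correlated best with the NCAC liver of their own number, a hint of pairing from the data and not the design. With the replicate number as a block the counts were 1477 for CAC against NCAC, 1833 for CAC against Con, 142 at 4 weeks, 5213 at 8 weeks and 4 for the change between 4 and 6 weeks. That block gave each replicate number a single effect shared by all 12 groups and all weeks. Pairing of same-numbered livers within week 6 was not fitted, so these counts cannot tell whether it matters.

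Signs turned only for genes that did not pass the test. Igf1 was 0.0041 under median-of-ratios rescaling, 0.12 under quantile normalization, 0.040 without other tissue, 0.089 without CAC replicates 1 and 3, and -0.15 to 0.040 with 1 library left out. Alb was 0 under quantile normalization, -0.038 without CAC replicates 1 and 3, and -0.0060 to 0.15 with 1 library left out. Pck1 was -0.021 without the 20 highest genes. Angptl4 was 0.18 without CAC replicates 1 and 3 and -0.22 to 0.15 with 1 library left out, and Gdf15 was -0.41 to 0.018 with 1 library left out. Depth is unknown, so the precision of genes under about 1 TPM cannot be given.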
